A study of Mus musculus with 12 samples.

Results

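Calcineurin is a calcium- and calmodulin-dependent protein phosphatase made of a catalytic A subunit and a regulatory B subunit. It removes phosphates from the NFATc transcription factors, which then enter the nucleus, and the pathway is best known in the heart for its part in pathological hypertrophy. Its output is held in check by binding proteins, the regulators of calcineurin (RCANs) and the calsarcins of the Z-disc, and transcription of Rcan1 from an internal start is a classical read-out of NFAT activity. Here 10 genes of the pathway, chosen by name with earlier results of these data known, were described out of 26921 in the count table. They were the catalytic subunits Ppp3ca and Ppp3cb, the regulatory subunit Ppp3r1, the transcription factors Nfatc1, Nfatc2, Nfatc3 and Nfatc4, and the inhibitors Rcan1, Rcan2 and Myoz2.

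The data were RNA-seq read counts from the left ventricle of mice aged 16 weeks, with 6 libraries from WT mice and 6 from cmGch1 KO littermates. Both genotypes carried floxed Gch1 alleles (Gch1 flox/flox), so WT here means floxed without Cre, and cmGch1 KO mice carried in addition 1 copy of α-MHC-Cre, a transgene that makes Cre recombinase in cardiomyocytes. No group carried Cre without the floxed alleles, so an effect of Cre and an effect of the deletion cannot be told apart. Gch1 encodes GTP cyclohydrolase I, the enzyme that starts the synthesis of tetrahydrobiopterin, a cofactor of nitric oxide synthases. The question put to the data was whether transcripts of the calcineurin-NFAT pathway differed between the genotypes.

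Total counts ranged from 19921398 to 37917806 per library. The deleted gene was lower as labelled. Gch1 was at 10.7 ± 0.979 cpm in the WT mice (counts scaled to a common library size with TMM factors) and at 5.51 ± 0.859 cpm in the KO mice (SD, n = 6 each), and no library of one genotype overlapped the other. Whole ventricle also holds cells in which this Cre is not active. Libraries cmGch1 KO 2 and 3 stood apart, with high Xist (87.1 and 99.6 cpm against at most 0.235 cpm elsewhere), no Y-linked counts and the lowest shares of mitochondrial counts, 14.9% and 16.1% against 18.3% to 22.9% elsewhere. The fit had no term for sex, and 2 female-like libraries sat in 1 genotype only. Values without these libraries are therefore given where a result rests on them. Markers of cardiomyocytes (8 of 8 detected, none at 0) summed to between 51725 and 60793 cpm in every library.

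By the edgeR quasi-likelihood test, 0 of the 10 genes passed a false discovery rate (FDR) of 0.05 between the genotypes, against 1.12% of the 11225 genes tested. The count was also 0 by the Wald test of DESeq2 and by limma on the deposited normalized values. It was not 0 in every alternative, as given in the closing section on processing. All 10 passed the filter on low counts, which asked for more than 3 cpm in at least 6 libraries. Rcan1 had the largest estimate, 0.46 higher on the log2 scale in cmGch1 KO, and Ppp3cb was 0.15 lower, both with an unadjusted p below 0.05 and neither past the adjustment over all genes. By that looser measure 1 of 10 genes lay higher, against 7.01% of all tested genes, and 1 of 10 lower, against 4.51%, so the counts were near the background in both directions. The genotypes overlapped for every one of the 10, against 1.87% of tested genes without overlap. The median log2 fold change of the 10 genes was -0.025, beside -0.0095 over all tested genes.

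**Figure D1:**
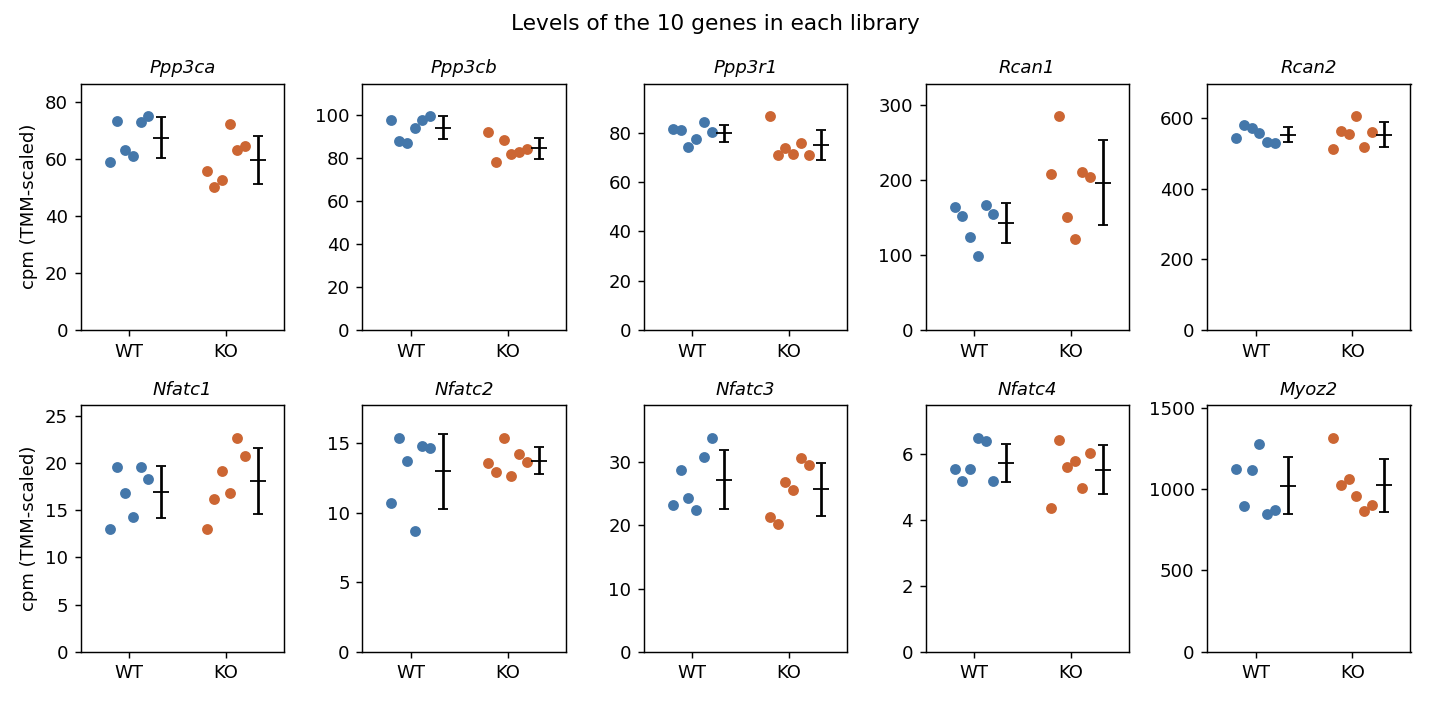
TMM-scaled cpm (linear axes from 0) of the 10 genes in each of the 6 WT and 6 cmGch1 KO libraries, 1 point per library, with the mean and SD beside each group. In Rcan1, 4 of the 6 KO points lie above the highest WT point at 166 cpm, while every KO point of Nfatc2 lies inside the wider WT range of 8.66 to 15.4 cpm.

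The transcripts differed widely in abundance, and the inhibitors were the most abundant. Levels between genes are compared here as cpm per kilobase of exon. Myoz2, which encodes calsarcin-1, a Z-disc protein that binds calcineurin, led with a WT mean of 298.7 and a range of 248 to 374. Rcan2 followed with a WT mean of 126 (121 to 133), and then Rcan1 with 46.3 (31.8 to 53.9). In WT no library of Rcan2 reached the level of Myoz2, and none of Rcan1 reached that of Rcan2.

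The phosphatase itself lay lower on the same per-kilobase scale. Ppp3r1, calcineurin B, had a WT mean of 24.7 (23.0 to 26.1), Ppp3cb, the β catalytic isoform, 10.7 (9.88 to 11.3), and Ppp3ca, the α isoform, 6.76 (5.91 to 7.53). These 3 ranges did not overlap in WT. Exons of Ppp3r1 overlap those of Wdr92 on the same strand, so its level depends on how reads were assigned there.

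The 4 transcription factors were the least abundant. Nfatc3 had a WT mean of 2.33 cpm per kilobase (1.91 to 2.89) and Nfatc1 one of 2.27 (1.74 to 2.63), so the order of these neighbours was within the spread between libraries. Nfatc2 had 1.23 (0.818 to 1.46) and Nfatc4 0.986 (0.892 to 1.12), ranges that overlapped with each other but not with those of Nfatc1 and Nfatc3. Nfatc3 shares exonic sequence with Esrp2 on the opposite strand, and the strand setting of the counting was not given in the sources used here.

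**Figure D2:**
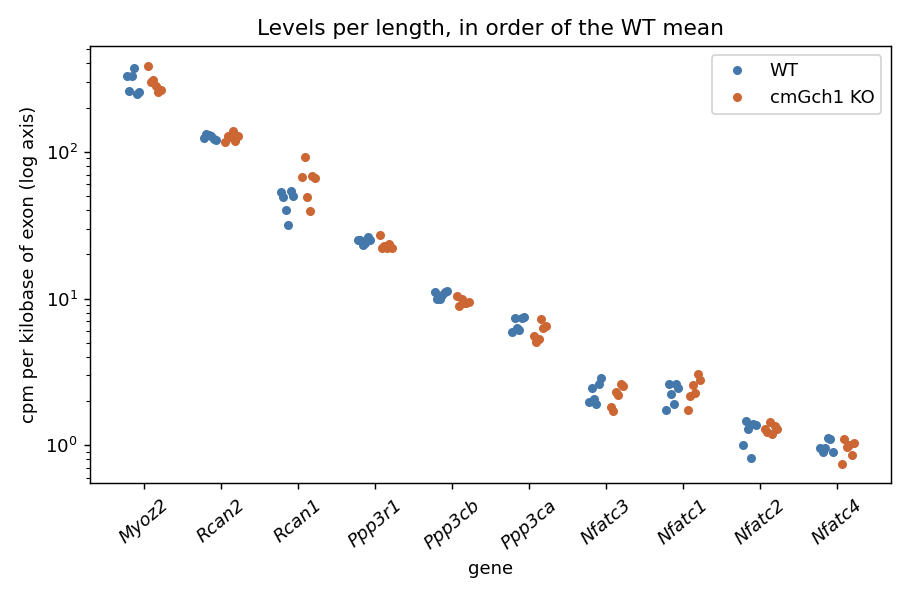
Levels per kilobase of exon (cpm per kilobase, log axis) of the 10 genes in the order of the WT mean, 1 point per library, WT and cmGch1 KO side by side. Myoz2 is at the top with a WT mean of 298.7 and Nfatc4 at the bottom with 0.986, and the order of Nfatc3 and Nfatc1 is not resolved.

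As shares of their own families on the per-kilobase scale, the A subunits were spread over 3 genes. In WT, Ppp3cb made up 40.3% ± 1.34, Ppp3cc, the γ isoform and no member of the 10, 34.2% ± 3.50, and Ppp3ca 25.6% ± 2.92 (SD, n = 6). In cmGch1 KO ventricles the same shares were 38.7% ± 1.92, 37.1% ± 2.94 and 24.1% ± 3.16 (SD, n = 6), each within a range that overlapped WT. Rcan2 held 72.1% ± 4.21 of the RCAN family in WT and 65.8% ± 6.91 in cmGch1 KO, Rcan1 26.3% ± 4.15 and 32.6% ± 7.005, and Rcan3 the small remainder (SD, n = 6). Nfatc3 and Nfatc1 held 34.1% ± 2.18 and 33.2% ± 1.64 of the NFATc family in WT (SD, n = 6).

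Rcan1 (ENSMUSG00000022951, GRCm38 chromosome 16, 92391953 to 92470867, minus strand) encodes a protein that binds calcineurin and inhibits it. Its 6 WT libraries had 163, 152, 124, 98.0, 166 and 155 cpm, in the order of the replicate numbers. The 6 cmGch1 KO libraries had 207, 286, 151, 121, 210.0 and 204 cpm. KO 1, 2, 5 and 6 lay above every WT library, while KO 3 and 4 lay inside the WT range, and WT 4 and KO 4 were the lowest of their genotypes.

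The mean level of Rcan1 was 143 ± 26.6 cpm for WT and 196 ± 56.8 cpm for KO ventricles (SD, n = 6); its SD in cmGch1 KO was 28.9% of the mean, the highest of the 10 genes in that genotype. The log2 fold change was 0.46 with a standard error of 0.18 and a 95% interval of 0.07 to 0.85, which is 37.4% higher with an interval from 4.78% to 80.2%. The edgeR quasi-likelihood test gave p = 0.0248 and an adjusted p of 0.322, and the exact permutation test over libraries, two-sided, gave p = 0.0584. With 1 library left out the estimate ranged from 0.32 to 0.57. The lowest was without cmGch1 KO 2, with an adjusted p of 0.655 in the edgeR test. Without cmGch1 KO 2 and 3, the libraries with high Xist, it was 0.38, with an adjusted p of 0.741. In both cases, and also without WT 3 or WT 4, the unadjusted value was above 0.05.

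Transcription of Rcan1 starts at more than 1 place, and the starts differ in the sequence before them. GENCODE M21 lists 7 Rcan1 transcripts, and the count per gene adds them up, so the starts could not be told apart in these data. The windows below are the 250 bases before 2 of these starts and before the first start of the paralogue Rcan2, from RefSeq on GRCm38.p6, and are shown because the internal Rcan1 start is the one known for NFAT control. Of the 7 Rcan1 transcripts, 2 start at or near the upstream window and 1 at or near the internal window. The annotated gene begins further upstream than both. Capitals mark each copy of the NFAT core letters GGAAA or, on the other strand, TTTCC.
Rcan1, upstream start, chr16:92466170-92466419, minus strand: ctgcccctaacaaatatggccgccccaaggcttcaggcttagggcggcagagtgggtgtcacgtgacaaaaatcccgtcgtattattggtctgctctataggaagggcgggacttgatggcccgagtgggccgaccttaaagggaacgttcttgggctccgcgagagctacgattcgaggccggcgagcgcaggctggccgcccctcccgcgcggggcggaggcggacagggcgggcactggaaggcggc
Rcan1, internal start, chr16:92400079-92400328, minus strand: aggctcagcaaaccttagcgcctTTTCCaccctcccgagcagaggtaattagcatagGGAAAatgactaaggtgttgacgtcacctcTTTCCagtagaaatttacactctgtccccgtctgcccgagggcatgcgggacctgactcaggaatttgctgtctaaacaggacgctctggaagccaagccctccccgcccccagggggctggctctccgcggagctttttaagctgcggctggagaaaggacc
Rcan2, first start, chr17:43801102-43801351, plus strand: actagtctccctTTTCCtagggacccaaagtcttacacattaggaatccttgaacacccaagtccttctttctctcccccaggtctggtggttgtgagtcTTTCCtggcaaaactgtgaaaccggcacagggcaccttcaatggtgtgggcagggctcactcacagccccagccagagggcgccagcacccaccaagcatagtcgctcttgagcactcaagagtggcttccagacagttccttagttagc
The internal Rcan1 window held 3 copies and the upstream window 0, and the Rcan2 window held 2. Over all 32851 windows of this length, 55.6% held at least 1 copy and 6.39% held 3 or more, so these short letters are common and a match is a description only. Of the other members with a window in the same table, that of Nfatc4, 1 of Nfatc2 and that of Ppp3cb also held 3 copies, that of Myoz2 held 2 and that of Ppp3r1 held 0. The other window of Nfatc2 held 1 copy, those of Nfatc3 held 1 and 0, and the 2 further windows of Rcan2 held 0 each.

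The other inhibitors had estimates close to 0. Rcan2 (ENSMUSG00000039601) had WT values of 528 to 581 cpm with a median of 549.9, and cmGch1 KO values of 511 to 606 cpm with a median of 558. Its log2 fold change was 0.00 with a standard error of 0.06, and its 95% interval ran from -0.13 to 0.13, that is from -8.50% to 9.33%. Of the 10 genes it had the narrowest interval.

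Myoz2 (ENSMUSG00000028116) ranged from 847 to 1279 cpm with a median of 1006 in WT and from 869 to 1319 cpm with a median of 994 in cmGch1 KO. The highest of all libraries was cmGch1 KO 1 and the lowest WT 5, and the groups overlapped almost fully. The log2 fold change was 0.00 with a standard error of 0.12 and an interval from -0.26 to 0.27, so a difference anywhere from -16.6% to 20.3% was not told apart from none. The log2 ratio of Rcan1 to Rcan2 per kilobase was -1.47 ± 0.326 in WT and -1.04 ± 0.483 in cmGch1 KO (SD, n = 6), a difference of 0.43 with p = 0.106 in the exact permutation test. That of Rcan1 to Myoz2 differed by 0.42 with p = 0.165 in the same exact permutation test, so neither ratio passed (adjusted p of 0.265 and 0.274 over the 5 ratios tested).

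Among the 10 genes, the 3 calcineurin subunits had lower estimates in cmGch1 KO, of which Ppp3cb had the lowest p. Ppp3cb (ENSMUSG00000021816, chromosome 14) had 97.4, 88.0, 87.1, 93.7, 97.8 and 99.6 cpm in WT libraries 1 to 6. In cmGch1 KO libraries 1 to 6 it had 92.2, 78.2, 88.1, 81.7, 82.6 and 84.0 cpm. Libraries KO 2, 4, 5 and 6 lay below every WT library, and KO 1 and 3 lay within the WT range.

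The log2 fold change of Ppp3cb was -0.15 with a standard error of 0.06 and a 95% interval from -0.28 to -0.02, or -10.1%. The edgeR quasi-likelihood test gave p = 0.0238 and an adjusted p of 0.314, and the exact permutation test, two-sided, p = 0.0152. Without cmGch1 KO 2 and 3 the estimate was -0.14 with an adjusted p of 0.751 in the edgeR test, and its unadjusted value was above 0.05. Summed markers of cardiomyocytes were also lower in cmGch1 KO, and their order of libraries was not that of Ppp3cb. They ranged from 56893 to 60793 cpm in WT and from 51725 to 57549 cpm in cmGch1 KO, 0.12 lower on the log2 scale, with none of the 8 at 0 and none of them called (p = 0.0043, exact permutation test). Without cmGch1 KO 2 and 3 the marker sum was 0.10 lower (p = 0.0095, exact permutation test). In bulk tissue, fewer cells of a type and less RNA per cell cannot be told apart, and the part of this marker difference in the Ppp3cb value was not tested. Scaled by library size alone, without TMM, the estimate for Ppp3cb was -0.08 with an adjusted p of 0.631, while the median over all genes moved to 0.07. The marker sums also depend on the TMM factors, which were 0.949 to 0.992 in WT and 0.970 to 1.09 in cmGch1 KO. Their difference without these factors was not computed.

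Ppp3ca (ENSMUSG00000028161, chromosome 3) ranged from 59.0 to 75.2 cpm with a median of 68.0 in WT and from 50.1 to 72.2 cpm with a median of 59.4 in cmGch1 KO. Libraries KO 1, 2 and 3 lay below every WT library, and the others lay within the WT range. The log2 fold change was -0.17 with a standard error of 0.10, an interval from -0.39 to 0.04 and an adjusted p of 0.556 in the edgeR quasi-likelihood test. Of the 3 lowest libraries, KO 2 and 3 were those with high Xist, and without them the estimate was -0.08 with an adjusted p of 0.997.

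Ppp3r1 (ENSMUSG00000033953, chromosome 11) ranged from 74.4 to 84.1 cpm with a median of 80.6 in WT and from 71.1 to 86.9 cpm with a median of 72.5 in cmGch1 KO. Although 4 KO libraries lay below every WT library, KO 1 was the highest of all. Its log2 fold change was -0.09 with a standard error of 0.06, an interval from -0.23 to 0.05 and an adjusted p of 0.685 in the edgeR quasi-likelihood test. Without KO 1 it was -0.14 with an adjusted p of 0.215, and its unadjusted value was below 0.05. Without KO 2 and 3, the libraries with high Xist, it was -0.07 with an adjusted p of 0.993 in the edgeR test. The balance within the enzyme was also compared. The log2 ratio of Ppp3ca to Ppp3cb per kilobase was -0.66 ± 0.163 in WT and -0.69 ± 0.228 in cmGch1 KO (SD, n = 6), and that of Ppp3r1 to both catalytic subunits was 0.51 ± 0.0568 and 0.58 ± 0.122 (SD, n = 6). Neither ratio differed beyond the spread between libraries (exact permutation test, p = 0.810 and 0.232).

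**Figure D3:**
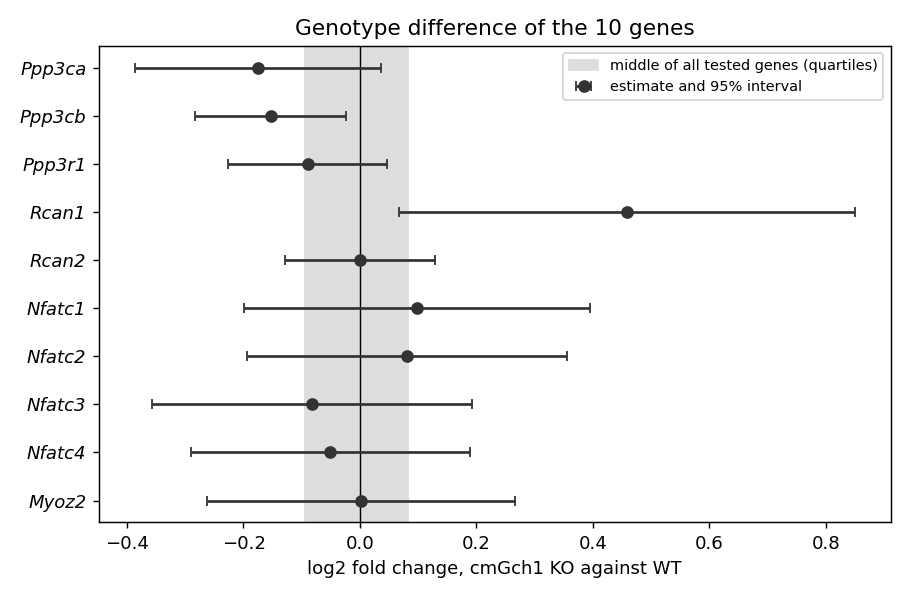
Log2 fold change between cmGch1 KO and WT (positive where KO is higher) for the 10 genes, with 95% intervals from the edgeR fit, and in grey the middle of all tested genes between the quartiles -0.09 and 0.08. The intervals of Rcan1 (0.07 to 0.85) and Ppp3cb (-0.28 to -0.02) do not include 0, before any adjustment for the number of genes.

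The 4 calcineurin-dependent NFAT genes had small estimates of both signs. Nfatc1 (ENSMUSG00000033016), known best for its role in valve formation, ranged from 13.0 to 19.6 cpm with a median of 17.6 in WT and from 13.0 to 22.7 cpm with a median of 18.02 in cmGch1 KO. KO 5 and 6 were above every WT library and KO 1 was just below the lowest. Its log2 fold change was 0.10 with an interval from -0.20 to 0.39. With 1 library left out it ran from 0.02 without KO 5 to 0.18 without KO 1.

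Nfatc2 (ENSMUSG00000027544) ranged from 8.66 to 15.4 cpm with a median of 14.2 in WT and from 12.7 to 15.4 cpm with a median of 13.6 in cmGch1 KO. The low end of WT was WT 4, and every KO library lay inside the WT range. Its log2 fold change was 0.08 with an interval from -0.19 to 0.36, and the sign turned without WT 4 (-0.01).

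Nfatc3 (ENSMUSG00000031902), which with Nfatc2 belongs to the factors studied for cardiac hypertrophy, ranged from 22.4 to 33.9 cpm with a median of 26.6 in WT and from 20.2 to 30.6 cpm with a median of 26.3 in cmGch1 KO. KO 1 and 2 lay below every WT library and the others within the WT range. Its log2 fold change was -0.08 with an interval from -0.36 to 0.19. With 1 library left out it ran from -0.14 without KO 5 to -0.01 without WT 6, and without both libraries with high Xist it was -0.02.

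Nfatc4 (ENSMUSG00000023411) had the lowest level, from 5.18 to 6.51 cpm with a median of 5.55 in WT and from 4.36 to 6.42 cpm with a median of 5.71 in cmGch1 KO, at 106 to 233 counts per library. Its log2 fold change was -0.05 with an interval from -0.29 to 0.19, and scaling by library size alone turned the sign (0.03). Across the NFATc genes the adjusted p lay between 0.884 and 0.932 in the edgeR quasi-likelihood test. The intervals left room for changes of up to 31.5% for Nfatc1 and down to -21.9% for Nfatc3, so no difference was resolved at this spread, which is not the same as no difference. The log2 ratio of Nfatc3 to the other NFATc genes was -0.95 ± 0.139 in WT and -1.10 ± 0.146 in cmGch1 KO (SD, n = 6), with an exact permutation p of 0.0866 and an adjusted p of 0.265.

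With genotype means removed, 3 of the 45 pairs of members were correlated across the 12 libraries by Pearson r, 1 positively and 2 inversely. Correlations were computed on log2 cpm after the mean of each genotype was removed, with permutation within the genotypes, and were chosen after the values were seen. Nfatc1 and Nfatc3 varied in the same direction (r = 0.85, rho = 0.84, permutation p = 0.0014 and 0.0023), while Myoz2 ran against Nfatc1 (r = -0.86, rho = -0.91, permutation p = 0.0010 and 0.0004) and against Nfatc3 (r = -0.84, rho = -0.81, permutation p = 0.0027 and 0.0039). Adjusted for the 45 pairs by the Benjamini-Hochberg method, r gave 0.0315, 0.0315 and 0.0408 and rho gave 0.0517, 0.0184 and 0.0564. Without the 2 libraries farthest from the median of the first gene of each pair, r was 0.86, -0.80 and -0.91, and without the libraries with high Xist it was 0.88, -0.89 and -0.95.

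Correlations of this size were common among all genes. A correlation beyond 0.8 in size with Nfatc1, Nfatc3 or Myoz2 was shared by 18.7%, 20.2% and 20.7% of the other 11224 tested genes. For Rcan1 it was shared by 0.223%, or 25 genes. WT 1, WT 4 and KO 1 had low Nfatc1 and Nfatc3 with high Myoz2, and WT 2, WT 5, WT 6, KO 5 and KO 6 the opposite. KO 2 had low Nfatc1 and Nfatc3 with Myoz2 near its genotype mean.

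**Figure D4:**
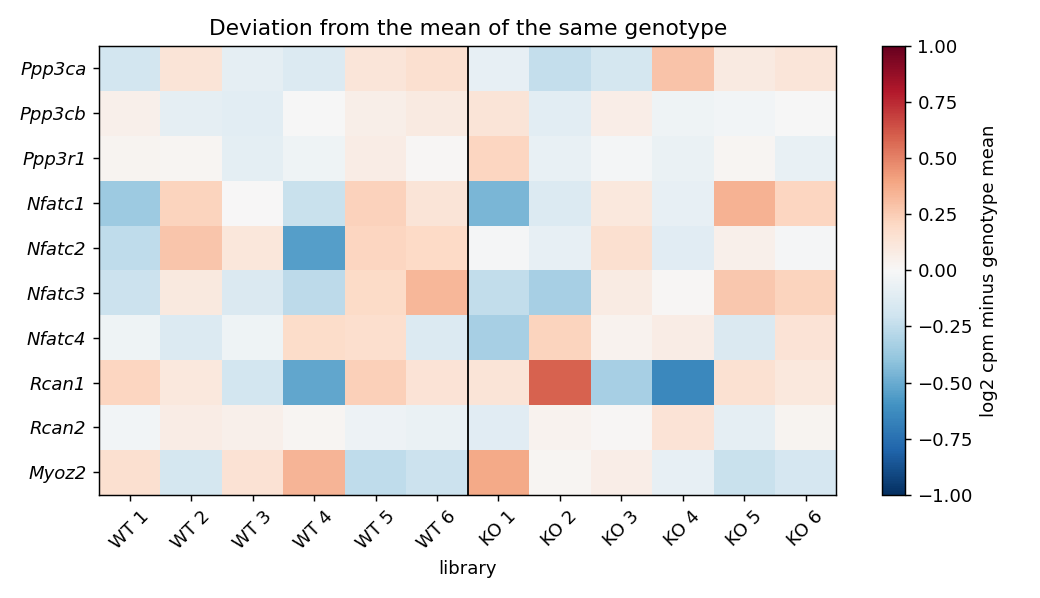
Deviation of log2 cpm from the mean of the same genotype for the 10 genes (rows) in the 12 libraries (columns), from blue (lower) to red (higher). Myoz2 runs opposite to Nfatc1 and Nfatc3 (r = -0.86 and -0.84), and Rcan1 has its own pattern with KO 2 highest and KO 4 and WT 4 lowest.

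The genes most like Rcan1 in this pattern were Hbegf, Tspan9, Arhgef19, Tgfb1 and Arntl, with Pearson r of 0.93, 0.89, 0.87, 0.86 and 0.85 over the 12 libraries, given as a description. Hbegf encodes a growth factor of the EGF family and Tgfb1 a cytokine, and Arntl encodes BMAL1, a core factor of the circadian clock. Arntl had 9.27 cpm in WT 4 and 12.6 cpm in KO 4, the lowest library of each genotype, as for Rcan1, and between 13.1 and 31.7 cpm elsewhere. The time of day of tissue collection was not given in the sources used here, and the part of this variation in the Rcan1 value was not tested. None of the 5 genes passed between genotypes (adjusted p of 0.489 to 0.997 in the edgeR quasi-likelihood test).

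The rest of the pathway was described from lists chosen with earlier results of these data known. Of 11 tested subunits and partners outside the 10 genes, 0 were called, near the 1.12% of all tested genes. Their median log2 fold change was 0.03. At an unadjusted p under 0.05 there were 0, beside 7.01% higher and 4.51% lower over all tested genes. The largest estimate was that of Ppia, which encodes cyclophilin A, the binding partner of cyclosporin (-0.22, standard error 0.26). Ppp3cc was at 27.0 ± 2.96 cpm for WT and 27.5 ± 2.56 cpm for KO (SD, n = 6). The testis-type regulatory subunit Ppp3r2 and Myoz1 and Myoz3 were at or near 0 and were not tested.

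Of 12 tested kinases that phosphorylate NFAT or act on it, 0 were called, with a median of -0.04 and 2 lower at an unadjusted p under 0.05, beside 4.51% of all tested genes. The lowest adjusted p was that of Mapk14, the p38α kinase, with 74.6 ± 3.35 cpm for WT and 65.2 ± 2.75 cpm for KO (SD, n = 6), a log2 fold change of -0.20 with an adjusted p of 0.129 in the edgeR quasi-likelihood test. Its groups did not overlap, which held for 1.87% of all tested genes. Without cmGch1 KO 2 and 3 its estimate was -0.18, with an adjusted p of 0.503 in the same test. Dyrk1a, which primes NFAT for export from the nucleus, was -0.17 with an unadjusted p of 0.0426 in the same test and an adjusted p of 0.407.

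Of 11 tested genes of calcium and calmodulin input, 0 were called, near the 1.12% of all tested genes. Their median was -0.05, and 1 was higher at an unadjusted p under 0.05, beside 7.01% of all tested genes. Cacna1c, the pore of the L-type calcium channel, had the largest estimate (-0.28, interval -0.56 to 0.01), and Orai1, the store-operated channel, was 0.23 higher with an adjusted p of 0.334 in the edgeR quasi-likelihood test. Of 9 NFAT relatives and partner factors, 0 were called, again near the 1.12% of all tested genes. Their median was -0.06. At an unadjusted p under 0.05 there were 0, beside 7.01% higher and 4.51% lower over all tested genes. Fos had the largest estimate there (-0.73), with a standard error of 0.73, since its level varied from 1.17 to 34.3 cpm in WT alone.

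The list of hypertrophic response genes was the only one of the 5 lists with called genes, 2 of 6 higher beside 1.12% of all tested genes called in either direction, and a median log2 fold change of 0.93. Ankrd1, a stress-responsive cardiac ankyrin repeat protein, was at 1162 ± 256 cpm for WT and 2536 ± 369 cpm for KO (SD, n = 6), a log2 fold change of 1.13 with an adjusted p of 0.00098 in the edgeR quasi-likelihood test, and its groups did not overlap. Nppa, which encodes atrial natriuretic peptide, had 153 ± 64.8 and 442 ± 166 cpm (SD, n = 6), a log2 fold change of 1.53 with an adjusted p of 0.024 in the same test. Without cmGch1 KO 2 and 3, Ankrd1 kept its call (1.17, adjusted p = 0.00578) and Nppa lost it (1.30, adjusted p = 0.176). Nppb (1.07, adjusted p = 0.0701) and Acta1 (0.78, adjusted p = 0.118) did not pass, and neither did Myh7 (0.13, adjusted p = 0.815) or Xirp2 (-0.10, adjusted p = 0.908). These genes respond to several stress pathways and are no measure of NFAT alone. The 5 atrial markers, which include Nppa, summed to 247 to 746 cpm in cmGch1 KO against 74.7 to 549.6 cpm in WT (4 of 5 tested, 1 called, none at 0, p = 0.0281, exact permutation test). Without cmGch1 KO 2 and 3 this sum was 0.97 higher on the log2 scale (p = 0.0857, exact permutation test). Over all libraries but without Nppa, a sum added after the values were seen, the atrial markers summed to 7.66 to 285 cpm in WT and 45.3 to 188 cpm in cmGch1 KO (p = 0.911, exact permutation test), so the difference in the sum was that of Nppa itself.

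Across libraries, no relation of Rcan1 with these 6 genes was resolved. With genotype means removed, Pearson r ranged from -0.28 (Nppa) to 0.35 (Xirp2) and Spearman's rho from -0.26 to 0.35. The smallest unadjusted permutation p for r was 0.233 and the smallest adjusted value over the 6 relations was 0.778. Leaving out the 2 libraries farthest in Rcan1 moved r with Acta1 from 0.04 to 0.55, with no test of that value.

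**Figure D5:**
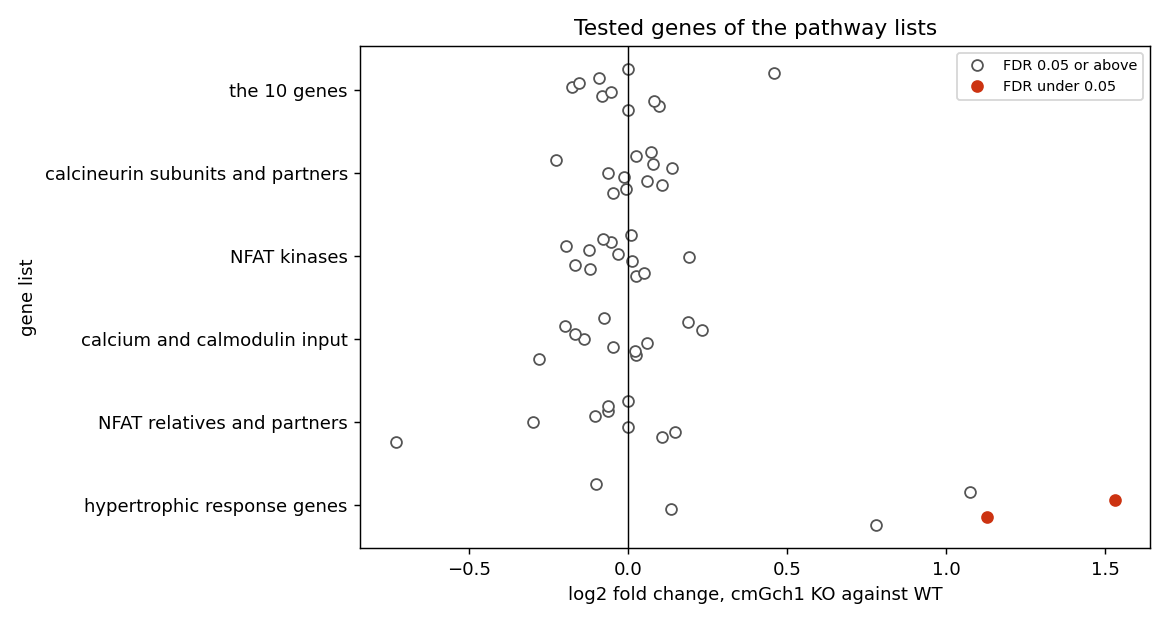
Log2 fold change between cmGch1 KO and WT (positive where KO is higher) for each tested gene of the pathway lists, 1 point per gene, filled where the FDR is under 0.05. The filled points are Ankrd1 (1.13) and Nppa (1.53) among the hypertrophic response genes, and no point of the 10 genes or of the other 4 lists is filled.

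Summed markers of other cell types were set beside these values, and their part in any of them was not tested. Fibroblast markers (7 genes) ranged from 799.8 to 1068 cpm in WT and from 903 to 1115 cpm in cmGch1 KO (exact permutation p = 0.0736), and macrophage markers (7 genes) from 209 to 319 cpm and from 261 to 369 cpm (exact permutation p = 0.0887). Endothelial, endocardial, smooth muscle and pericyte, lymphocyte, skeletal muscle and immediate early lists gave exact permutation p of 0.288, 0.732, 0.368, 0.0931, 0.416 and 0.504. Of the 7 smooth muscle and pericyte markers 1 was called, beside 1.12% of all tested genes. No tested gene of the other lists in this paragraph was called. The lymphocyte sum was at most 4.39 cpm in any library, and Myh4, a skeletal muscle myosin, was at 0 in every library.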

How the data were processed

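Left ventricle libraries of 6 WT and 6 cmGch1 KO mice were grouped by the genotype in the labels, with 1 mouse as the unit per the study's methods. The authors made dUTP-stranded libraries for paired-end sequencing, aligned reads with HISAT2 to GRCm38 (processing notes and methods) and deposited raw counts per gene, made with featureCounts. The annotation and strand setting of the counting are not given in the sources used here. The authors also deposited normalized values on a log2-like scale, whose tool is not stated, used only as an alternative. Of 26921 identifiers, 26582 (98.7%) matched GENCODE M21. The limit for a gene without reads, taken as 3 counts, was 0.151 cpm or less in each library. Intervals of fold changes come from the spread between libraries, and this limit covers counting error only, since reads carry no molecular identifiers.

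Counts were tested with edgeR 4.0.16 in R 4.3.3 (TMM, cpm over 3 in at least 6 libraries, quasi-likelihood fit on genotype, Benjamini-Hochberg over all 11225 genes, FDR 0.05), checked on simulated counts. Single values were tested by exact permutation over all 924 splits, two-sided. Cpm used the library sizes of the filtered genes, a choice made after a comparison with earlier values of these data, which left the fit as it was. Correlations used log2 cpm with a prior count of 2 and 100000 permutations within genotype, first run over all libraries and changed after that result was seen, with the same 3 pairs of members passing for r. Over 30 pairs of libraries of 1 genotype, chi-square per degree of freedom was 13.4 to 85.2, so none was a copy. The named genes were the 10 members, Gch1, sex-linked genes, list genes with an FDR under 0.05 or, in lists without one, that with the largest fold change, and the 5 genes most like Rcan1. Mapk14, Dyrk1a, Orai1, Ppp3cc, Ppp3r2, Myoz1, Myoz3 and the other hypertrophic response genes were named after their values were seen.

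Alternatives were DESeq2 1.42.0 (Wald test, size factors), library size alone, no filter, filterByExpr, limma 3.58.1 on the deposited log2 values, a replicate block, sex-linked expression, a surrogate variable from svaseq (sva 3.50.0), and libraries left out. The input of svaseq was first the unscaled counts. It was changed to TMM-scaled cpm after that result was seen and found to differ from an earlier analysis of these data, and both are reported. The members and lists were chosen with earlier results of these data known.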

Additional observations from a re-analysis of the deposited data

Results flagged for a closer look

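In 30 groups of 6 values (the 10 genes and the 5 ratios in each genotype), 2 had a single library far from the others, and chance gives such a library in about 1 in 20 groups. Ppp3r1 was at 86.9 cpm in cmGch1 KO 1, while the other KO libraries lay between 71.1 and 76.0 cpm, and without KO 1 the log2 fold change of Ppp3r1 was -0.14 in place of -0.09. The log2 ratio of Nfatc3 to the sum of Nfatc1, Nfatc2 and Nfatc4 per kilobase was -1.38 in cmGch1 KO 2, while the others lay between -1.12 and -1.005. KO 2 is also 1 of the 2 libraries with high Xist and few mitochondrial counts, and without both of them the genotype difference in this ratio was -0.07 in place of -0.15. The cause of either value was not tested.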

How the results depend on the processing

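Over 23 alternatives, none of the 10 genes passed the FDR in 22, and 1 passed with the replicate block, where Rcan1 was 0.43 with an adjusted p of 0.0436. The other genes kept their side of the threshold. Same-numbered libraries correlated between -0.13 and 0.68 in their deviations, and 3 of 6 WT libraries matched their own number best. The labels name no pairs, so the main test used none, and whether the numbers mark pairs was not settled. Paired by number, 3 of the 5 ratios (Rcan1 to Rcan2, Rcan1 to Myoz2, Nfatc3 to the other NFATc genes) each had an exact p of 0.0312 and an adjusted p of 0.0521. That exact p is the smallest that 6 pairs allow, so with 3 of the 5 ratios at it the adjusted value could not be lower. Rcan1 stayed positive, at 0.32 to 0.57 with 1 library left out, and Ppp3cb stayed negative, at -0.18 to -0.14.

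Estimates near 0 changed sign. Rcan2 was -0.017 without a filter, -0.0053 with filterByExpr, -0.0013 with the replicate block, -0.0082 with the sex covariate, -0.0096 on the deposited values and -0.011 without the libraries with high Xist. Myoz2 was -0.016 without a filter, -0.0039 with filterByExpr, -0.00050 (sex covariate), -0.0028 (deposited values), -0.016 (without high Xist) and -0.0022 (surrogate variable from unscaled counts). Nfatc4 was 0.030 by library size alone, and the log2 ratio of Ppp3ca to Ppp3cb differed by 0.065 without high Xist. With 1 library left out the ranges were -0.028 to 0.022 (Rcan2), -0.084 to 0.076 (Myoz2), -0.013 to 0.14 (Nfatc2), -0.10 to 0.0079 (Nfatc4) and -0.094 to 0.020 (that ratio).

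Over all genes, 50 were lower and 76 higher. Counts were 116 higher by library size alone, 155 and 218 by DESeq2, 76 lower with the replicate block, 24 and 40 with the sex covariate and 18 and 16 without high Xist. A surrogate variable from TMM-scaled cpm gave 331 and 305, and the input tried first, unscaled counts, added after seeing the data, gave 31 and 38, with 0 of the 10 genes in either. With 1 library left out they were 28 to 96 lower and 44 to 111 higher, with the most calls without KO 1 (96 and 111) and the fewest without WT 3 (28 and 44).

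Nfatc4 had the fewest counts of the 10 genes, 106 to 233 per library. The cause of these changes was not tested.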
